A study of Mus musculus with 6 samples.

Results

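Translation initiation and elongation factors are the proteins that bring ribosomes to the start codon of an mRNA and move them along it. The 66 genes described here are the mouse protein-coding genes whose symbols begin with Eif or Eef followed by a number, plus the poly(A)-binding protein genes Pabpc1 and Pabpc4 and the release factor genes Etf1 and Gspt1. They were found by matching the Entrez identifiers of the deposited table, which holds 9822 genes, to RefSeq symbols. Another 9 symbols that follow the same pattern, among them Eif2b3, Eif4ebp3 and Eef1a2, were not analysed here.

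The RNA came from platelets, the anucleate blood cells shed by megakaryocytes, of male mice on the BalB/c background. The mutant group carried the genotype Nxf1+/C587R, a missense change in 1 copy of the gene for the main mRNA export receptor, and the animals they were set against were wild-type littermates. Each of the 3 mutant and 3 wild-type libraries was made from a pool of platelet suspensions of a shared genotype that had passed flow cytometry with more than 98% of events positive for CD41, the alpha IIb integrin of platelets. The pools were prepared on 3 days, with both genotypes on each day. The sources used here do not give the age of the mice or how many went into a pool, so p-values rest on the spread from pool to pool. Another series holds the same wild-type libraries.

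Initiation begins when eIF2, which carries the initiator tRNA with GTP, joins the small ribosomal subunit together with eIF1, eIF1A, eIF3 and eIF5. The cap complex eIF4F, made of the cap-binding protein eIF4E, the scaffold eIF4G and the RNA helicase eIF4A, recruits that subunit to the mRNA, and 4E-BP proteins block it by occupying the eIF4G-binding face of eIF4E. The eEF1 and eEF2 factors then deliver aminoacyl-tRNA and translocate the ribosome, and eRF1 with eRF3 end the chain at a stop codon. Platelets have no nucleus, so their protein synthesis depends on mRNA and factors packed by the megakaryocyte, and their translation is known to respond to activation through mTOR signalling.

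Totals were 25189231 to 29421549 counts per library, and at least 9820 genes had a count in each. The lowest count of any of the 66 genes in any library was 11. Every gene of the table exceeds 0.5 CPM in at least 3 libraries, so genes below that level would not be among the 66. The summed level of 9 platelet markers, such as Pf4, Ppbp and Itga2b, was 67132 to 76060 CPM (counts scaled to a common library total) in mutant and 56999 to 70362 CPM in wild-type pools. Nrgn alone averaged 31572 CPM in mutant pools, against 30395 CPM in wild-type pools. Of the 9, 3 rose (Itgb3, Ppbp and Tubb1) and 2 fell (Gp1ba, with a log2 fold change of -1.08, and Gp9, with -0.40). Markers of other blood cells were present at lower sums. For 6 red cell markers the sum was 31513, 3968 and 4559 CPM in mutant pools of days 1, 2 and 3, against 35714, 4305 and 4427 CPM in wild-type pools. No defining marker found in the table was at 0, which says little given that level. The table held 6 of 8 listed red cell markers, 6 of 7 T cell markers and 6 of 8 myeloid markers, and the absent ones could not be assessed. The log2 fold change of Nxf1 was -0.19 (edgeR adjusted p = 0.604), and since the change is a missense one its transcript level does not check the genotype labels.

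Eif4g3 and Eif4ebp1, the genes with the largest falls of the 66, both code for proteins that bind eIF4E, so the coding sequence of the contact is shown for them and for relatives that share it. It is a tyrosine codon (TAT or TAC), any 4 codons, a leucine codon (CTN, TTA or TTG) and then a codon for leucine, methionine or phenylalanine. In the longest GENCODE coding sequence of each gene, read on the coding strand and in frame only, this pattern occurred once in Eif4g1, Eif4g3, Eif4ebp1, Eif4ebp2 and Eif4enif1. It occurred 0 times in the 906 codons of Eif4g2, whose protein is known to lack eIF4E binding. Of 8924 genes of the table with a coding sequence, 18.3% held the pattern, so a match alone is a description and not a binding site. The 33 bases around each match, 5′ to 3′ on mm10, have the tyrosine codon and the closing codon pair in capitals.
Eif4g1, chr16:20681215-20681247, plus strand, tyrosine codon 616: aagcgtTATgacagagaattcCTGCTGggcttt
Eif4g3, chr4:138156644-138156676, plus strand, tyrosine codon 802: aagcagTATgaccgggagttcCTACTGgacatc
Eif4ebp1, chr8:27273331-27273363, plus strand, tyrosine codon 53: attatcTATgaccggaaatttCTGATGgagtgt
Eif4ebp2, chr10:61435063-61435095, minus strand, tyrosine codon 54: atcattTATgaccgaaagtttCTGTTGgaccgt
Eif4enif1, chromosome 11, across an intron, plus strand, tyrosine codon 29: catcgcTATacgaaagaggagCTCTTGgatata

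Over the 21 bases of the pattern, the scaffolds Eif4g1 and Eif4g3 each matched Eif4ebp1 at 16 bases, Eif4ebp2 matched it at 18 and Eif4enif1 at 8. Of these 5 genes, Eif4g1 rose, Eif4g3 and Eif4ebp1 fell, and Eif4ebp2 and Eif4enif1 did not pass the test between genotypes, as described with the cap complex.

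The transcripts spanned a wide range of levels. On the scale of CPM per kilobase of gene length, which allows genes to be compared, the start codon factor Eif1 was first with 744 in mutant and 874 in wild-type platelets. It was followed by Pabpc1 (259 in mutant, 339 in wild-type), Eef1a1 (239 in mutant, 304 in wild-type), Eif4ebp1 (173 in mutant, 293 in wild-type) and Eif3h (159 in mutant, 201 in wild-type). The lowest 3 were the eIF2 alpha kinases Eif2ak4 and Eif2ak2 and the methyltransferase Eef2kmt, all below 1 CPM per kilobase. The 5 genes with the highest CPM held 68.1% of the CPM of all 66 and the first 10 held 86.3%, while 40 genes averaged below 10 CPM.

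**Figure D1:**
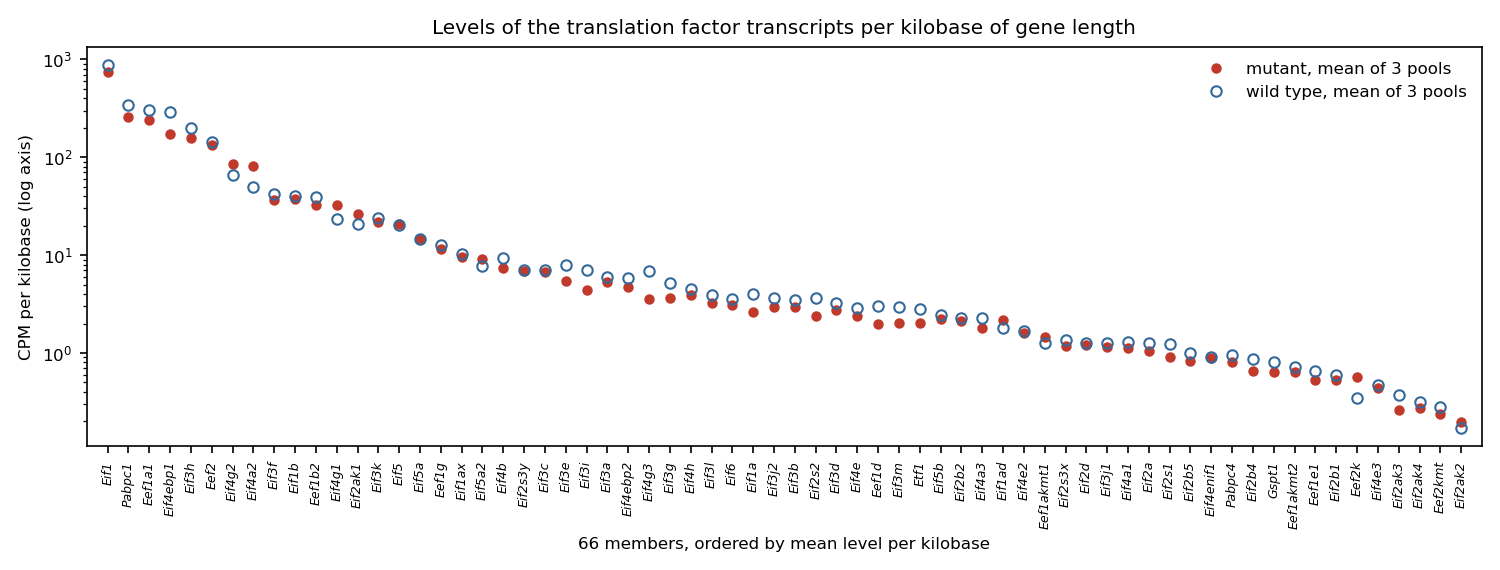
Mean level of each of the 66 transcripts in CPM per kilobase of gene length (log axis), filled circles for mutant and open circles for wild-type platelets, each the mean of 3 pools, ordered by mean level. Eif1 stands at 744 in mutant and 874 in wild-type platelets. Eif4g3 and Eef2k are among the genes whose 2 circles stand widest apart.

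The subunits of eIF3 were far from equal in level. They ran from 1.22 CPM per kilobase for Eif3j1 to 180.2 for Eif3h over all libraries, a 148-fold span. The level of Eif3j1 is uncertain, since it is a near-identical copy of Eif3j2 and overlaps Spg11. The next lowest was Eif3m, at 2.47 CPM per kilobase. Within eIF4A, the helicase of the cap complex, most transcripts came from Eif4a2, at 82.0 CPM per kilobase in mutant and 49.7 in wild-type platelets. On the same scale Eif4a1 averaged 1.1215 in mutant and 1.29 in wild-type platelets. Eif4g2 was likewise the most abundant eIF4G family gene, at 86.0 CPM per kilobase in mutant and 66.1 in wild-type platelets.

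Between genotypes, 5 of the 66 transcripts rose in mutant platelets (Eif4a2, Eef2k, Eif4g1, Eif4g2 and Eif2ak1) and 12 fell (Eif4g3, Eif4ebp1, Eif3i, Eef1d, Eif2s2, Eif1a, Eif3e, Eif3g, Etf1, Eef1a1, Pabpc1 and Eif3h). The test was edgeR's quasi-likelihood test on all 9822 genes with genotype as the only term, and calls were made where the p adjusted by Benjamini-Hochberg was under 0.05. The share called higher was 7.58%, against 12.9% of all genes, and the share called lower was 18.2%, against 9.16% of all genes. The median log2 fold change was -0.21 over the 66 genes and -0.04 over all genes tested. Log2 fold changes, here and throughout mutant over wild type, were negative for 56 of the 66 and for 5337 of the 9822. In a bulk sample, fewer cells of a type and less RNA per cell cannot be told apart, and CPM gives a share of the library rather than an amount per platelet.

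The libraries of the 2 genotypes were fully apart for 21 of the 66 genes in the lower direction (31.8%, against 15.9% of all genes) and for 5 in the higher direction (7.58%, against 20.4%). All called genes but Pabpc1 were among them. Adding the preparation day as a block raised the calls to 6 higher and 26 lower (9.09% and 39.4% of the 66), with all genes at 22.0% and 18.0%. DESeq2 with the same block called 6 higher and 16 lower, and of the 15 genes that edgeR called with the block and not without it, it called 5 (Eif3f, Eif4b, Eef1b2, Eif5a2 and Eif1). Without a block, the count of genes called higher was 2 without mutant replicate 1, mutant replicate 2 or day 1, 3 without wild-type replicate 1, and 1 without wild-type replicate 2 or day 2. The count called lower was 7 without day 1 and 4 without day 2.

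**Figure D2:**
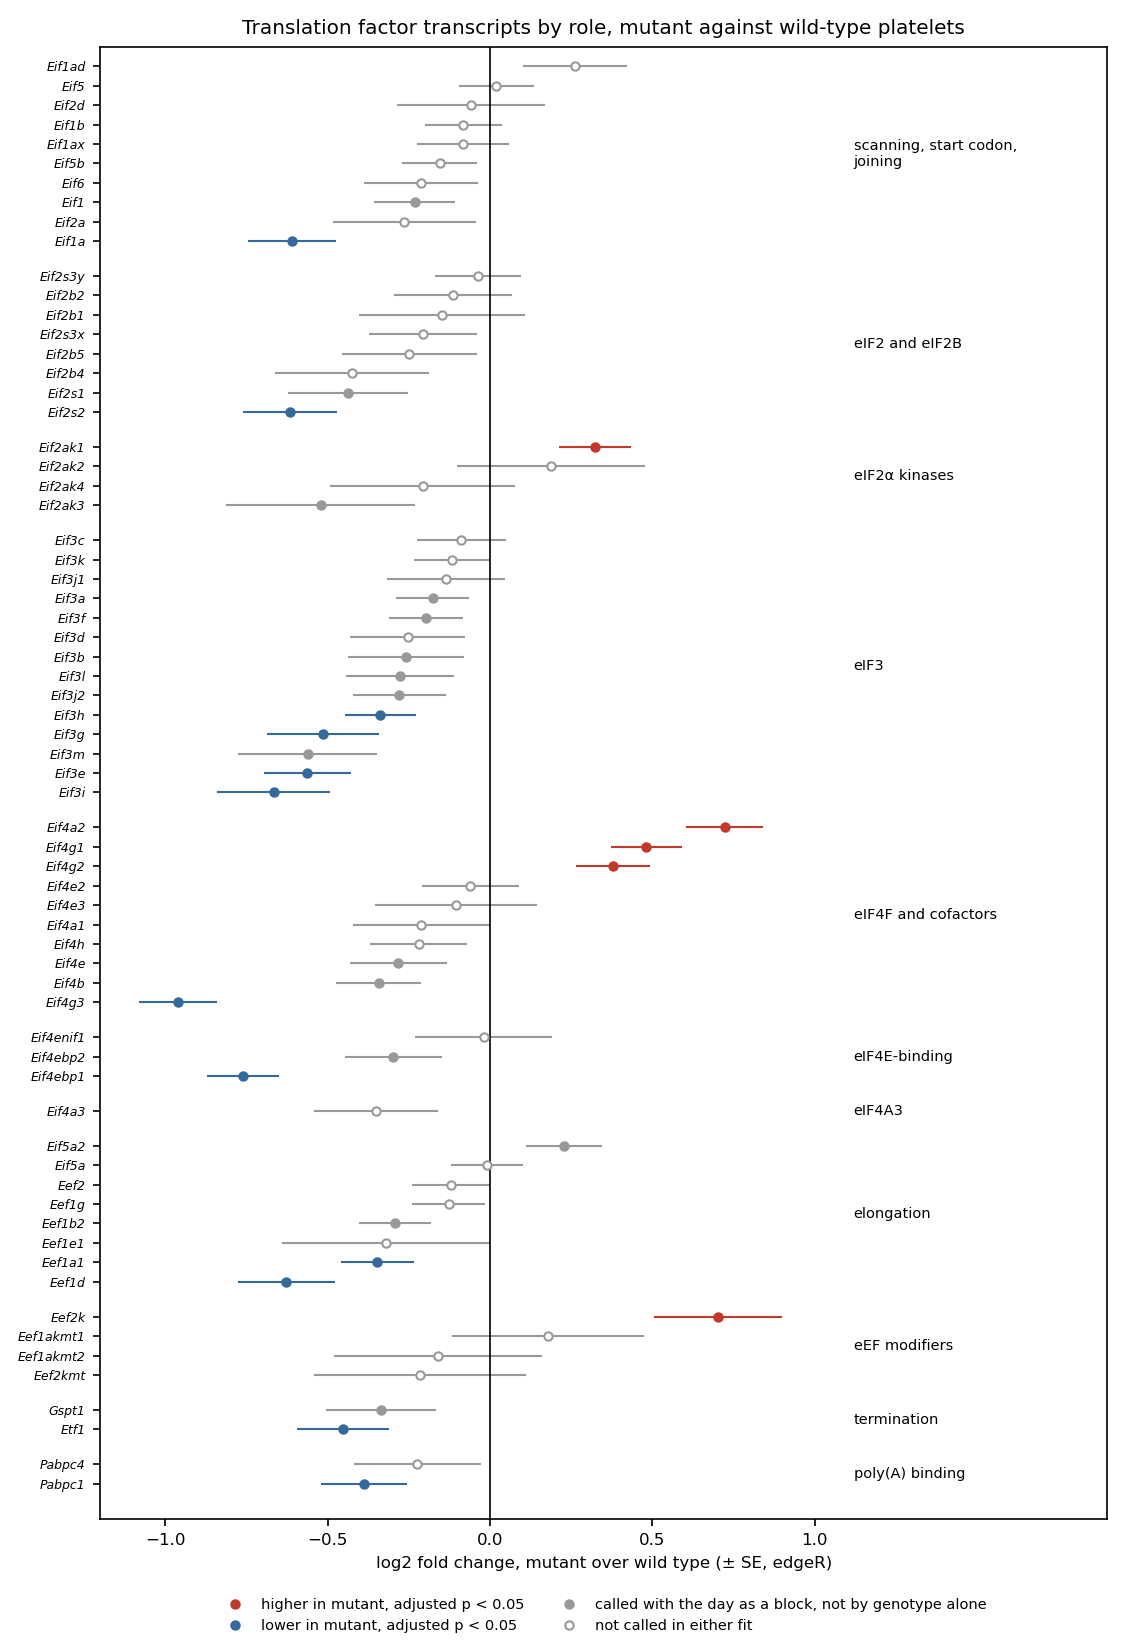
Log2 fold change (mutant over wild type) of each of the 66 transcripts with its SE, grouped by role in translation. Red points are higher and blue points lower in mutant platelets at an adjusted p under 0.05, filled grey points pass with the day as a block and not by genotype alone, and open points pass in neither fit. The values run from -0.96 for Eif4g3 to 0.72 for Eif4a2.

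As a share of all counts, the 66 genes held 0.423, 0.463 and 0.473% in mutant pools, against 0.497, 0.519 and 0.567% in wild-type pools. Every mutant value was below every wild-type value, and the means were 0.453 ± 0.0265% in mutant pools and 0.528 ± 0.0359% in wild-type pools (SD, n = 3 each; two-sided exact permutation p = 0.1, the smallest that 3 against 3 libraries allow, and 0.2 adjusted over 4 shares). With TMM-scaled totals the shares were 0.464, 0.482 and 0.450% in mutant pools, against 0.518, 0.543 and 0.478% in wild-type pools, and the groups overlapped (exact permutation p = 0.2), an alternative chosen after seeing the data. The 4 termination and poly(A)-binding genes, of which Pabpc1 held 97.5 to 98.4%, had 0.0721 ± 0.00405% in mutant pools, against 0.0994 ± 0.00315% in wild-type pools (exact permutation p = 0.1). With TMM-scaled totals the highest mutant pool and the lowest wild-type pool of these 4 genes were both at 0.0809%. The shares of the 49 initiation genes (0.282% in mutant, 0.306% in wild-type) and of the 8 elongation factors (0.0979% in mutant, 0.121% in wild-type) overlapped between genotypes (exact permutation p = 0.2 for each). The 49 include the 4 eIF2 alpha kinase genes and the 3 genes grouped as eIF4E repressors, among them Eif4ebp1.

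Among genes of the cap complex and their relatives, the transcripts of the 3 eIF4G family scaffolds moved apart. Eif4g3, whose protein bridges eIF4E, eIF4A and eIF3 as eIF4G1 does, fell, while Eif4g1 and Eif4g2 rose. The helicase gene Eif4a2 rose, and Eif4ebp1, whose protein blocks cap-dependent initiation, fell. Over the 10 genes grouped here as eIF4F and its cofactors, 3 rose, 1 fell and 6 did not pass the test. The group includes Eif4g2, whose protein does not bind eIF4E. The share called was 40%, against 22.1% of all genes.

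Eif4g3 (Entrez 230861, chr4:137991779-138207086, mm10) had 19.5, 23.8 and 24.1 CPM in the mutant pools of days 1, 2 and 3, against 46.6, 42.4 and 42.0 CPM in wild-type pools. The highest mutant pool was well below the lowest wild-type pool, with a log2 fold change of -0.96 ± 0.12 (SE; edgeR adjusted p = 9.56e-06). This was the largest fall among the 66 genes. Eif4g1 (Entrez 208643, chr16:20672720-20692883) had 179, 164 and 182 CPM in mutant pools, against 133, 118 and 125 CPM in wild-type pools. All 3 mutant pools were above all wild-type pools, and the log2 fold change was 0.48 ± 0.11 (SE; edgeR adjusted p = 0.00325). The call was lost without mutant replicate 1 (adjusted p = 0.0542), wild-type replicate 2 (0.0505), day 1 (0.0859) or day 2 (0.136).

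Eif4g2 (Entrez 13690, chr7:111067985-111083030) codes for a scaffold related to the carboxy-terminal part of eIF4G1 that drives initiation without eIF4E. It had 632, 709 and 662 CPM in mutant pools, against 533, 538 and 468 CPM in wild-type pools. The groups were apart, with a log2 fold change of 0.38 ± 0.11 (SE; edgeR adjusted p = 0.0205). That call rested on several libraries, with an adjusted p of 0.112 without mutant replicate 1, 0.253 without mutant replicate 2, 0.0867 without wild-type replicate 1, 0.0768 without wild-type replicate 2, 0.18 without day 1, 0.326 without day 2 and 0.0554 without the 10 most abundant genes of the table.

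Because the 3 scaffold genes belong to 1 family, their log2 count ratios were also taken within each library, which removes the scaling between libraries. The Eif4g1 to Eif4g3 ratio was 3.20, 2.78 and 2.91 in mutant pools, against 1.52, 1.47 and 1.57 in wild-type pools. Its means of 2.97 ± 0.21 in mutant and 1.52 ± 0.05 in wild-type pools (SD, n = 3 each) differed by 1.45 on the log2 scale. For Eif4g2 to Eif4g3 the means were 4.90 ± 0.12 in mutant and 3.55 ± 0.10 in wild-type pools. Eif4g1 to Eif4g2 overlapped between genotypes (-1.93 ± 0.16 in mutant and -2.03 ± 0.15 in wild-type pools). These ratios compare counts without regard to gene length, so they show unequal change and not which scaffold is more abundant.

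Of 22 ratios between paralogues, 7 did not overlap between genotypes, each with an exact permutation p of 0.1, the smallest possible, and 0.314 after adjustment over all 22. Besides the eIF4G ratios these were Eif4a2 to Eif4a3 (6.62 in mutant and 5.54 in wild-type pools, log2), Eif4a1 to Eif4a2 (-6.93 in mutant, -6.03 in wild-type), Eif1a to Eif1ax (-0.25 in mutant, 0.28 in wild-type), Eif1 to Eif1b (4.70 in mutant, 4.86 in wild-type) and Eif3j1 to Eif3j2 (-1.38 in mutant, -1.52 in wild-type). Eif3j1 and Eif3j2 are near-identical copies, and how their shared reads were assigned is not stated, so that ratio is uncertain. The Eif1a to Eif1ax ratio changed sign, with fewer counts of Eif1a than of Eif1ax in every mutant pool and more in every wild-type pool.

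**Figure D3:**
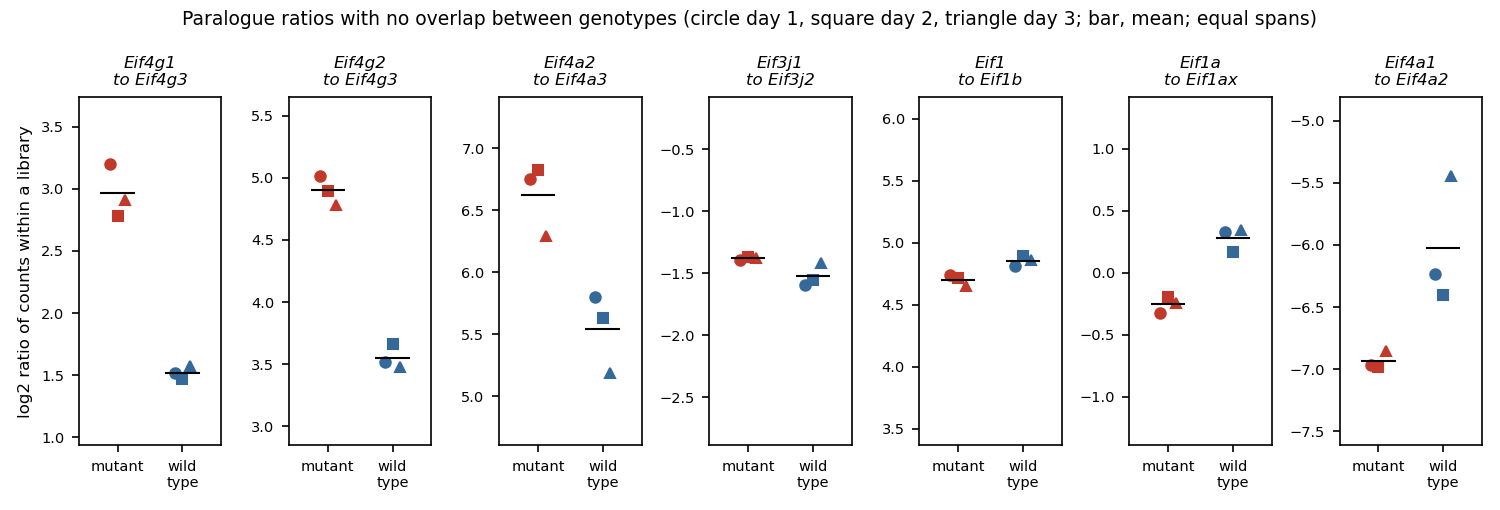
Log2 count ratio of paralogues within each library, mutant pools left of wild-type pools. The Eif4g1 to Eif4g3 ratio averages 2.97 in mutant and 1.52 in wild-type pools, with no overlap between the 3 pools of each.

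Eif4a2 (Entrez 13682, chr16:23107468-23114132) codes for a DEAD-box helicase that unwinds mRNA leaders. It had 264, 271 and 246 CPM in mutant pools, against 165, 174 and 134 CPM in wild-type pools. The lowest mutant pool was far above the highest wild-type pool, and the log2 fold change was 0.72 ± 0.12 (SE; edgeR adjusted p = 0.000175). The gene overlaps Rfc4, and the TruSeq kit of the labels leaves strand unmarked, so reads from the shared stretch cannot be told apart.

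Eif4ebp1 (Entrez 13685, chr8:27260327-27275656) had 165, 179 and 165 CPM in mutant pools, against 292, 310 and 259 CPM in wild-type pools. Every mutant pool was far below every wild-type pool, with a log2 fold change of -0.76 ± 0.11 (SE; edgeR adjusted p = 5.63e-05). Its paralogue Eif4ebp2, a second 4E-BP, had a log2 fold change of -0.30 and passed by edgeR with the day as a block (adjusted p = 0.176 without and 0.00827 with the block), though not by DESeq2 with the block (0.168). Eif4enif1, whose protein carries eIF4E into the nucleus and into P-bodies, was at 3.79 ± 0.514 CPM in mutant platelets, against 3.81 ± 1.24 CPM in wild-type ones (SD, n = 3 each; adjusted p = 0.96).

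The cap-binding gene Eif4e was at -0.28 on the log2 scale (adjusted p = 0.203, and 0.0199 with the block), and the helicase cofactor gene Eif4b at -0.34 (0.0706, and 1.53e-05 with the block). DESeq2 with the block called Eif4b (0.0029) and not Eif4e (0.247). Eif4b also passed without a block when the 10 most abundant genes (0.0435), mutant replicate 3 (0.0208), wild-type replicate 2 (0.0382) or day 3 (0.0402) were left out. It passed as well among genes averaging 10 CPM or more, with scaling computed anew (0.0370). The other 4 genes of this group, Eif4a1, Eif4e2, Eif4e3 and Eif4h, ranged from -0.22 to -0.06 on the log2 scale (adjusted p = 0.332 to 0.817). Eif4a3, a relative of the helicases that works in the exon junction complex and not in eIF4F, was at -0.35 on the log2 scale (adjusted p = 0.216).

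**Figure D4:**
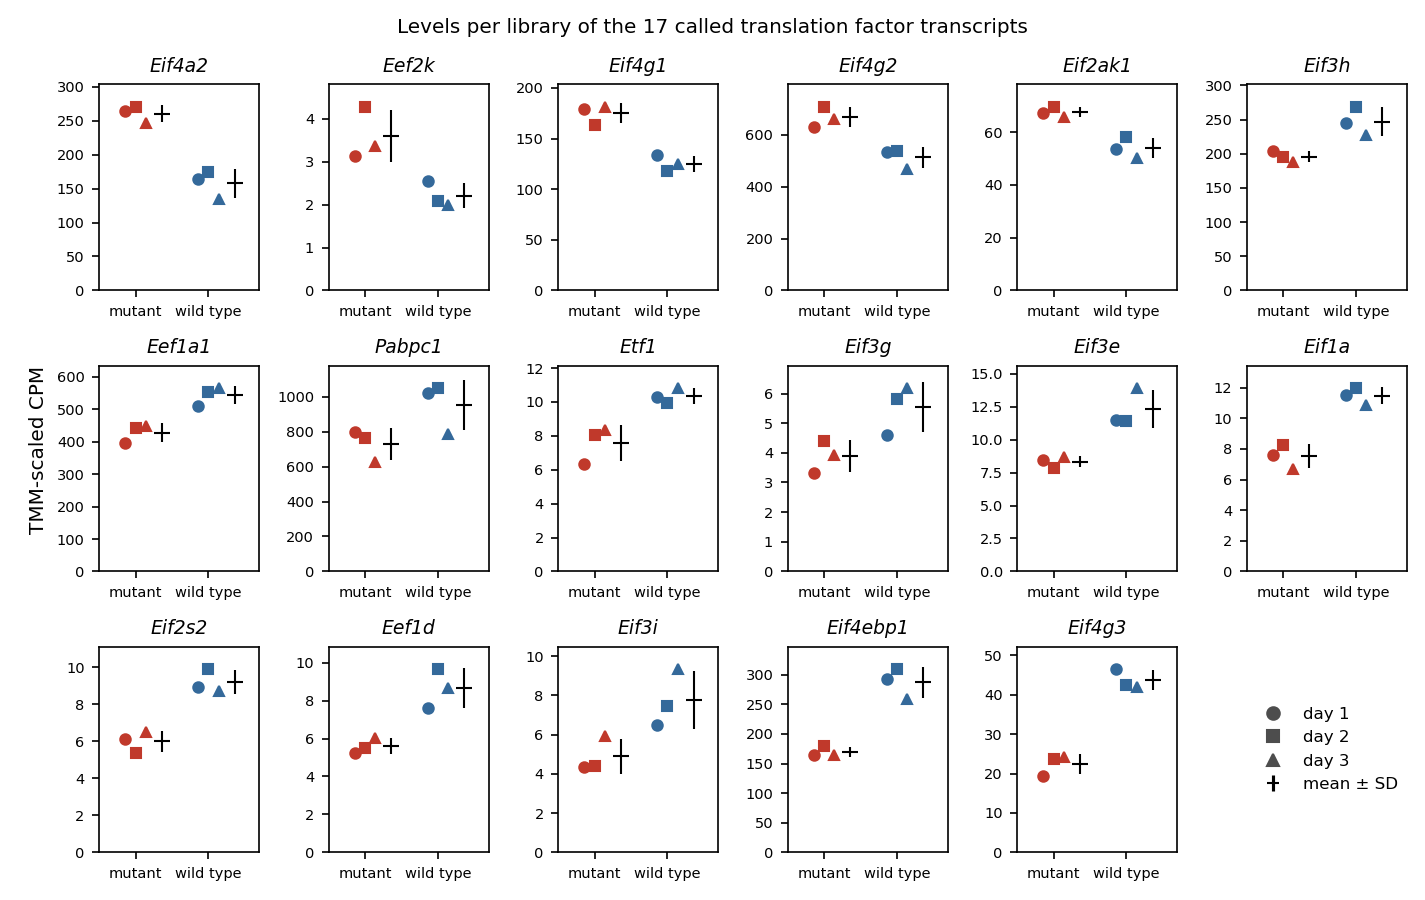
TMM-scaled CPM of the 17 called transcripts in each library, mutant pools left of wild-type pools, with marker shapes for the preparation day and the mean ± SD beside each group (axes start at 0). The genotypes overlap for Pabpc1, where the mutant pool of day 1 (796 CPM) lies above the wild-type pool of day 3 (789 CPM).

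The scaffold complex eIF3, which holds the small subunit and meets eIF4G, had 4 of its 14 genes lower (Eif3e, Eif3g, Eif3h and Eif3i; 9.16% of all genes were) and 0 higher by edgeR, with 3 lower and 0 higher by DESeq2. At an unadjusted p under 0.05 in edgeR the counts were 5 lower and 0 higher. All 14 log2 fold changes were negative, with a median of -0.27, beside -0.04 for all genes. Within days the median was -0.28, -0.24 and -0.27, and 12 of the 14 were lower on all 3 days, as were 30.7% of all genes. Mutant pools were all below wild-type pools for 8 of the 14, and for 15.9% of all genes.

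Eif3h, the most abundant subunit gene (Entrez 68135, chr15:51786563-51865461), had 204, 194 and 188 CPM in mutant pools, against 245.5, 269 and 227 CPM in wild-type pools. The groups did not overlap, and the log2 fold change was -0.34 ± 0.11 (SE; edgeR adjusted p = 0.0316). Eif3e (Entrez 16341, chr15:43250040-43282736), another subunit outside the yeast core, had 8.43, 7.88 and 8.68 CPM in mutant pools, against 11.5, 11.4 and 14.0 CPM in wild-type pools. It was lower in every mutant pool, with a log2 fold change of -0.56 ± 0.13 (SE; edgeR adjusted p = 0.00451).

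Eif3g and Eif3i code for subunits of the eIF3 core that is conserved in yeast. Eif3i (Entrez 54709, chromosome 4) had 4.36, 4.41 and 5.93 CPM in mutant pools, against 6.49, 7.44 and 9.37 CPM in wild-type pools, a log2 fold change of -0.67 ± 0.17 (SE; edgeR adjusted p = 0.00871). Eif3g (Entrez 53356, chromosome 9) had 3.32, 4.41 and 3.93 CPM in mutant pools, against 4.60, 5.82 and 6.20 CPM in wild-type pools, a log2 fold change of -0.51 ± 0.17 (SE; edgeR adjusted p = 0.0379). For Eif3g the nearest pools of the 2 genotypes almost met. Both genes are low in these libraries.

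Of these calls, only that of Eif3e held without any single library or day. Eif3i was lost without day 2 (adjusted p = 0.0583) and with library size as the only scaling (0.06). Eif3g was lost without mutant replicate 1 (0.136), wild-type replicate 2 (0.077), wild-type replicate 3 (0.121) and each of the 3 days (0.0868, 0.106 and 0.106), and with library size as the only scaling (0.0984), DESeq2 (0.0585) or limma-voom with quality weights (0.0553). Eif3h was lost without mutant replicates 1, 2 or 3 (0.065, 0.102 and 0.1), wild-type replicates 1 or 2 (0.06 and 0.114), day 1 (0.154) and day 2 (0.334), and with RLE scaling (0.0623).

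Another 6 eIF3 genes did not pass by genotype alone and were lower with the day as a block by edgeR. Their adjusted p values without and with it were 0.298 and 0.0465 for Eif3a, 0.346 and 0.0284 for Eif3b, 0.248 and 0.0140 for Eif3f, 0.184 and 0.0231 for Eif3j2, 0.269 and 0.0342 for Eif3l, and 0.0681 and 0.0015 for Eif3m. Their log2 fold changes ran from -0.56 for Eif3m to -0.18 for Eif3a. DESeq2 with the same block called Eif3f (adjusted p = 0.0294) and not the other 5 (0.106 to 0.272). Without a block, Eif3a (0.0180) and Eif3f (0.0333) passed among genes averaging 10 CPM or more. Scaling was computed anew there, and the log2 fold change of Eif3a was -0.34. Also without a block, Eif3m passed without the 10 most abundant genes (0.0451), mutant replicate 3 (0.0178) or wild-type replicate 2 (0.0294). The remaining 4 genes, Eif3c, Eif3d, Eif3j1 and Eif3k, had log2 fold changes of -0.25 to -0.09 and passed in neither fit (adjusted p = 0.345 to 0.705 without the block).

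Of the genes for eIF2 and eIF2B, the GTP carrier of initiator tRNA and its exchange factor, 1 of 8 fell (12.5%, against 9.16% of all genes). That was Eif2s2 (Entrez 67204, chr2:154871410-154892906), the beta subunit of eIF2, with 6.11, 5.39 and 6.49 CPM in mutant pools, against 8.97, 9.94 and 8.72 CPM in wild-type pools. The 3 mutant pools were below the 3 wild-type pools, with a log2 fold change of -0.62 ± 0.14 (SE; edgeR adjusted p = 0.00391; 0.122 without day 2). Eif2s1, the alpha subunit that stress kinases phosphorylate, had a log2 fold change of -0.44 and passed by edgeR with the block (adjusted p = 0.102 without and 0.0103 with it) but not by DESeq2 with the block (0.182). The other 6, 4 eIF2B genes and the gamma subunit genes Eif2s3x and Eif2s3y, ranged from -0.43 to -0.04 (adjusted p = 0.225 to 0.877).

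Among the 4 kinases of eIF2 alpha, Eif2ak1 rose, as did 12.9% of all genes. Its protein is the heme-regulated inhibitor, which is best known from red cell precursors. Eif2ak1 (Entrez 15467, chr5:143817792-143902717) had 67.2, 69.7 and 65.9 CPM in mutant pools, against 53.8, 58.0 and 50.2 CPM in wild-type pools. The groups did not overlap, and the log2 fold change was 0.32 ± 0.11 (SE; edgeR adjusted p = 0.0412). The call was lost when any of the 6 libraries was left out (adjusted p = 0.229, 0.303 and 0.0695 without mutant replicates 1, 2 and 3, and 0.166, 0.102 and 0.0567 without wild-type replicates 1, 2 and 3), and without day 1 (0.328) or day 2 (0.33). It was also lost with library size alone (0.0716), RLE scaling (0.0714) and without the 10 most abundant genes (0.101). A refit to genes averaging 10 CPM or more, with scaling computed anew, lost the call too (log2 fold change 0.16, adjusted p = 0.0744). The gene overlaps Aimp2, so its reads are not fully its own.

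Red cell markers varied by day far more than Eif2ak1 did, and their summed level was lower in the mutant than in the wild-type pool on days 1 and 2 and higher on day 3. Of the 6 red cell markers measured, 0 rose and 0 fell by edgeR or DESeq2, also at an unadjusted edgeR p under 0.05 (2 higher and 1 lower with the block). The other kinase genes were low. The PERK gene Eif2ak3 had 1.16 ± 0.196 CPM in mutant platelets, against 1.69 ± 0.696 CPM in wild-type platelets and passed by edgeR with the block (adjusted p = 0.228 without and 0.04996 with it) but not by DESeq2 with the block (0.41). It also passed by genotype alone without wild-type replicate 3 (0.0260), while Eif2ak2 and Eif2ak4 passed in neither fit (0.701 and 0.663 without the block).

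The 10 genes grouped here under scanning, start codon choice and subunit joining include Eif1ad, which is not an established initiation factor. Of the 10, only Eif1a fell (10%, against 9.16% of all genes). Its protein, eIF1A, binds the small subunit beside eIF1 and keeps it open for scanning. Eif1a (Entrez 13664, chromosome 18) had 7.61, 8.25 and 6.71 CPM in mutant pools, against 11.6, 12.01 and 10.9 CPM in wild-type pools, with no overlap and a log2 fold change of -0.61 ± 0.14 (SE; edgeR adjusted p = 0.00263). Its X-linked paralogue Eif1ax had 8.96 ± 0.887 CPM in mutant platelets, against 9.49 ± 1.11 CPM in wild-type ones (SD, n = 3 each; adjusted p = 0.738). Reads shared between such close copies could be split between them.

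Eif1, whose protein guards start codon choice, was the most abundant of the 66 genes. It had 951, 958 and 800.03 CPM in mutant pools, against 1085, 1171 and 926 CPM in wild-type pools. It was lower in the mutant pool of each day, yet the groups overlapped, since day 3 was low in both. The log2 fold change was -0.23 ± 0.12 (SE; edgeR adjusted p = 0.209), and the gene passed with the block (0.00272). Without a block it also passed with library size alone (0.0050), among genes averaging 10 CPM or more (0.0016), and without wild-type replicate 3 (0.0246) or day 3 (0.0234). In the run on genes averaging 10 CPM or more, scaling was computed anew and the log2 fold change of Eif1 was -0.40. The other 8, Eif1ad, Eif1ax, Eif1b, Eif2a, Eif2d, Eif5, Eif5b and Eif6, had log2 fold changes of -0.26 to 0.26 (adjusted p = 0.271 to 0.928).

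Of the 8 genes grouped as elongation factors, Eef1a1 and Eef1d fell (25%, against 9.16% of all genes). Both code for parts of the machinery that brings aminoacyl-tRNA to the ribosome. Eef1a1 (Entrez 13627, chr9:78478453-78481724), which delivers the tRNA, had 395, 441 and 448 CPM in mutant pools, against 512, 554 and 567 CPM in wild-type pools. No mutant pool reached the lowest wild-type pool, and the log2 fold change was -0.35 ± 0.11 (SE; edgeR adjusted p = 0.0306). Eef1d (Entrez 66656, chromosome 15), a nucleotide exchange subunit for eEF1A, had 5.26, 5.51 and 6.04 CPM in mutant pools, against 7.61, 9.69 and 8.69 CPM in wild-type pools. It too did not overlap, with a log2 fold change of -0.63 ± 0.15 (SE; edgeR adjusted p = 0.00457).

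The Eef1a1 call was lost without mutant replicate 1 (adjusted p = 0.16), mutant replicate 2 (0.0806), wild-type replicate 2 (0.0668), day 1 (0.219) and day 2 (0.21), and with RLE scaling (0.0535), and that of Eef1d without day 2 (0.101). Eef1b2, another exchange subunit, had a log2 fold change of -0.29 and passed with the block (0.0681 without and 9.89e-05 with it). Without a block it also passed with library size alone (0.0123), upper-quartile factors (0.0162), limma-voom with quality weights (0.0347), genes averaging 10 CPM or more (0.0011), the 10 most abundant genes left out (0.0452) or wild-type replicate 3 left out (0.0349). Among genes averaging 10 CPM or more, scaling was computed anew and the log2 fold change of Eef1b2 was -0.46. Eif5a2, a form of the hypusine-carrying factor that helps ribosomes past stalling sequences, passed with the block in the higher direction (log2 fold change 0.23, adjusted p = 0.189 without and 0.00428 with it). The translocase gene Eef2 had 360, 421 and 455 CPM in mutant pools, against 408, 447 and 488 CPM in wild-type pools. The mutant pool of Eef2 was the lower on each day, but the groups overlapped and the log2 fold change was -0.12 ± 0.12 (SE; edgeR adjusted p = 0.536). Eef1e1, Eef1g and Eif5a likewise passed in neither fit. Eef1e1 is grouped here by its symbol, and its protein is a partner of the aminoacyl-tRNA synthetases.

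Eef2k, the kinase that phosphorylates eEF2 and thereby slows elongation, rose. Eef2k (Entrez 13631, chr7:120842642-120907219) had 3.13, 4.29 and 3.37 CPM in mutant pools, against 2.55, 2.08 and 2.00 CPM in wild-type pools. The groups did not overlap, with a log2 fold change of 0.70 ± 0.20 (SE; edgeR adjusted p = 0.0139). It is a low gene and its call was lost without mutant replicate 2 (adjusted p = 0.157), wild-type replicate 2 (0.0665), day 2 (0.316), or with library size as the only scaling (0.0771). The elongation factor methyltransferase genes Eef1akmt1, Eef1akmt2 and Eef2kmt had log2 fold changes of -0.22 to 0.18 (adjusted p = 0.696 to 0.778).

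Etf1, which codes for eRF1, the protein that reads the stop codon, fell. Etf1 (Entrez 225363, chr18:34902785-34932008) had 6.34, 8.05 and 8.34 CPM in mutant pools, against 10.3, 9.94 and 10.9 CPM in wild-type pools. All mutant pools were below all wild-type pools, with a log2 fold change of -0.45 ± 0.14 (SE; edgeR adjusted p = 0.0269). The call was lost without mutant replicate 1 (0.129), wild-type replicate 3 (0.0558), day 1 (0.209) and day 2 (0.0849), and with library size as the only scaling (0.0743). Its partner GTPase gene Gspt1, for eRF3a, had a log2 fold change of -0.34 and passed by edgeR with the block (adjusted p = 0.174 without and 0.0216 with it) but not by DESeq2 with the block (0.289).

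Pabpc1, the main cytoplasmic poly(A)-binding protein, which joins the mRNA tail to eIF4G, fell. Pabpc1 (Entrez 18458, chr15:36595658-36609581) had 796, 766 and 628 CPM in mutant pools, against 1022.5, 1053 and 789 CPM in wild-type pools. The pools of day 3 were the lowest of each genotype, and this was the called gene whose groups overlapped. The log2 fold change of Pabpc1 was -0.39 ± 0.13 (SE; edgeR adjusted p = 0.0422). The call was lost without mutant replicates 2 or 3 (0.0734 and 0.167), wild-type replicates 1 or 2 (0.115 and 0.118), day 1 (0.158) and day 2 (0.244), and with RLE scaling (0.0776), DESeq2 (0.0547) or limma-voom (0.0507). Pabpc4 was low, at 2.45 ± 0.436 CPM in mutant platelets, against 2.86 ± 0.116 CPM in wild-type ones (SD, n = 3 each; adjusted p = 0.469).

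Of the 17 called genes, Eif4g3, Eif4ebp1, Eif4a2, Eif1a and Eif3e kept their call in every alternative run for them. Without the libraries of day 2, 12 of the 17 calls were lost. The direction of each of the 17 held in every alternative, and within each of the 3 days the 5 genes that rose were higher and the 12 that fell were lower in the mutant pool.

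Paired by day, 51, 49 and 49 of the 66 genes were lower in the mutant pool, with medians of -0.18, -0.20 and -0.23 on the log2 scale. On all 3 days 36 genes were lower and 7 were higher. For comparison, 30.7% of all genes were lower and 30.1% higher on all 3 days. The deviations of the 66 genes from their group means correlated between the mutant and the wild-type pool of a day at 0.457, 0.101 and 0.549 within days 1, 2 and 3. Between days it ranged from -0.586 to 0.301, and the highest, between mutant replicate 1 and wild-type replicate 2, exceeded the value within day 2. These correlations are across genes of the same libraries, and genes are not independent replicates.

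**Figure D5:**
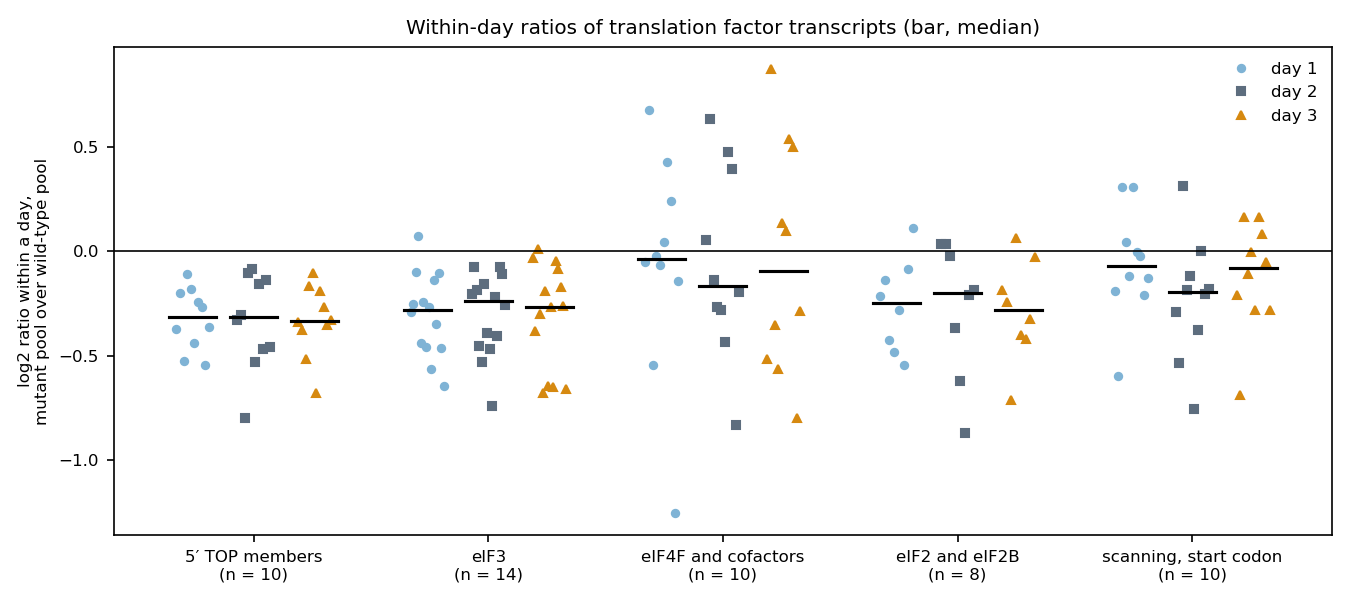
Log2 ratio of the mutant over the wild-type pool of the same day for each gene of 5 groups, with the group's median as a bar. The 10 genes on the 5′ TOP list lie below 0 on all 3 days, and the genes of eIF4F and its cofactors lie on both sides.

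Several of these factors are made from 5′ TOP mRNAs, whose leaders begin with a cytosine and a run of pyrimidines and whose translation follows mTOR activity, as for ribosomal proteins. The leader stretch of such mRNAs is shown because the 10 genes on this list were lower on every day. The windows are 30 bases of the coding strand, 5 before and 25 from the RefSeq transcript start (GRCm38.p6), with the longest run of at least 7 pyrimidines (C or T in any order) in capitals.
Eef1a1, chr9:78481700-78481729, minus strand: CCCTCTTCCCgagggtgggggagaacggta
Eif3f, chr7:108934410-108934439, plus strand: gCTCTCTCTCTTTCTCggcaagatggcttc
Eef2, chr10:81176626-81176655, plus strand: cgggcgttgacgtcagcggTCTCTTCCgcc
Eif4b, chr15:102073768-102073797, plus strand: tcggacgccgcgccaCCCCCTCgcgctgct
Eef1b2, chr1:63176826-63176855, plus strand: gttccgccggaagtagccgaggccttgcgt

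Such a run was present in 4 of the 5 genes of the list that had a start in the sequence table. The exception was Eef1b2. The runs of Eef1a1 and Eif3f covered the annotated start. Those of Eef2 and Eif4b lay downstream of it, so these windows show no such run at the annotated start. Anywhere in the window, a run was present in 10 of 47 of the other translation factor genes with a start (21.3%). It was present in 19.3% of genes of the deposited table and in 49.1% of ribosomal protein genes. The longest run among those 10 genes was in Eif2s3x (16 bases), followed by Eif2s3y (12) and Eif3k (11). Their log2 fold changes were -0.21, -0.04 and -0.12, and they passed in neither fit. Of the 10, only Eif3l passed, by edgeR with the day as a block (adjusted p = 0.0342) and not by DESeq2 with it. The search used the coding strand only, the annotated start need not be the one used in megakaryocytes, and a run is not a functional element by itself.

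Of the 10 genes on the 5′ TOP list, 5 fell (Eef1a1, Eef1d, Eif3e, Eif3h and Pabpc1) and 0 rose by edgeR (4 and 0 by DESeq2, and 7 and 0 at an unadjusted edgeR p under 0.05). The median log2 fold change was -0.34, beside -0.21 for the 56 genes outside the list, of which 5 rose and 7 fell. All 10 were lower in the mutant pool on all 3 days, with medians of -0.31, -0.32 and -0.34, and 8 had every mutant pool below every wild-type pool. With the block, 8 of the 10 were lower. Over all genes, 9.16% were called lower, 30.7% were lower on all 3 days, 15.9% did not overlap in the lower direction and 18.0% were lower with the block. The other 5 were Eef1b2, Eif4b and Eif3f, which passed with the block and not by genotype alone, and Eef2 and Eef1g, which passed in neither fit. Eef1g had 18.2 ± 0.286 CPM in mutant platelets, against 19.8 ± 0.516 CPM in wild-type ones (SD, n = 3 each; adjusted p = 0.474).

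The 71 genes listed as cytosolic ribosomal proteins, a class known for 5′ TOP mRNAs, include the paralogues Rpl7l1 and Rpl22l1. The 71 had a median log2 fold change of -0.61, with 51 lower and 0 higher by edgeR (48 and 0 by DESeq2, and 61 and 0 at an unadjusted edgeR p under 0.05). Their median exceeded in size that of the translation factors on the 5′ TOP list, and no test was made of that difference. For the 8 B cell markers the summed level was 249, 259.6 and 314 CPM in mutant pools, against 328, 320.2 and 429 CPM in wild-type pools, with 4 lower and 0 higher by edgeR, by DESeq2 and at an unadjusted edgeR p under 0.05, and a median log2 fold change of -0.38. T cell markers summed to 16.0, 19.4 and 20.1 CPM in mutant pools, against 19.0, 20.5 and 24.8 CPM in wild-type pools, with 0 of 6 called by edgeR or DESeq2 (2 lower at an unadjusted edgeR p under 0.05). Myeloid markers summed to 1780, 2093 and 1914 CPM in mutant pools, against 1352, 1605 and 1165 CPM in wild-type pools, with 1 of 6 higher. That 1 was Lyz2, which made up nearly all of the sum (1913 CPM in mutant pools, against 1358 CPM in wild-type pools), while each of the other 5 averaged below 10 CPM and was not called. The part of these cell markers in the lower translation factor transcripts was not tested.

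Around the factors, 29 regulators of initiation were measured, and 2 rose and 2 fell by edgeR (2 and 1 by DESeq2, median log2 fold change -0.09). The share called was 13.8%, against 22.1% of all genes. The 2 that rose were the kinase genes Mknk1 and Mknk2, whose products phosphorylate eIF4E when bound to eIF4G. Mknk1 was at 40.0 CPM in mutant platelets, against 25.2 CPM in wild-type platelets (log2 fold change 0.67, adjusted p = 0.0002, edgeR), and Mknk2 at 64.9 CPM in mutant pools, against 46.8 CPM in wild-type pools (0.47, adjusted p = 0.0040). Rps6, a ribosomal protein that S6 kinases phosphorylate, fell to 1.22 CPM in mutant platelets, against 2.12 CPM in wild-type platelets (-0.79, adjusted p = 0.0138). It is also counted among the ribosomal protein genes above. The fourth was Ppp1r15b, a subunit of the phosphatase of eIF2 alpha, at 7.68 CPM in mutant platelets, against 10.4 CPM in wild-type platelets (-0.43, adjusted p = 0.0465).

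Other groups of the translation machinery are given beside the 22.1% of all genes that were called in either direction. Of 22 genes listed as cytosolic aminoacyl-tRNA synthetases, which include their non-catalytic partners Aimp1 and Aimp2, 1 fell (median -0.14). That was Mars1, which charges methionyl-tRNA, at 3.55 CPM in mutant platelets, against 5.65 CPM in wild-type platelets (log2 fold change -0.67, adjusted p = 0.0052, edgeR). Of 9 ribosome rescue and recycling genes, 0 passed in the genotype-only edgeR fit or by DESeq2 (median -0.16), with 1 higher and 1 lower at an unadjusted edgeR p under 0.05 and 2 of each with the block. Of 7 mitochondrial translation factor genes, 0 passed by edgeR or DESeq2 (median -0.21), with 1 higher and 1 lower both at an unadjusted edgeR p under 0.05 and with the block.

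Over the 6 libraries, the genes whose log2 CPM ran most like that of Eif4g3, the gene with the smallest p, were Lncbate1 (Pearson r = 0.998), Ctdspl2 (0.996) and a gene known only by its Entrez identifier (0.995). All 3 were lower in mutant platelets and far less abundant than Eif4g3, with Ctdspl2 at 2.71 ± 0.382 CPM in mutant platelets, against 8.03 ± 0.412 CPM in wild-type ones (SD, n = 3 each). The 6 libraries differ in genotype, and no p is given for this likeness.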

How the data were processed

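Per the file headers, the files the authors deposited list whole-number counts for each gene and its length in base pairs. The submitters' processing notes name CASAVA 1.8.2, Subread, featureCounts and mm10, without settings. How multi-mapping reads and strand were treated is not stated. From the values, all 9822 genes exceed 0.5 CPM in at least 3 libraries. The RefSeq table of GRCm38.p6 named 9636 Entrez identifiers and gave coordinates, and its start windows and the GENCODE coding sequences gave the sequences.

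The test was edgeR 4.0.16 (R 4.3.3) as a robust quasi-likelihood fit on genotype only after TMM scaling, two-sided, with Benjamini-Hochberg adjustment over all genes. CPM used TMM-scaled totals, with factors of 0.912 to 1.19. The SE is the log2 fold change divided by the square root of F. Log2 paralogue ratios added 0.5 to each count. Shares and ratios were compared by exact permutation. The fits were tested on simulated counts. Between pools the biological coefficient of variation was 14.2%, or 5.73% when the day was a block.

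The day pairs the libraries, since per the labels each day has 1 pool of either genotype. Across all genes, deviations from the group means correlated at 0.52, 0.35 and 0.547 for pools of the same day, while pools of different days gave -0.0358 or less. Replicates differed beyond sampling noise, with a chi-square per gene of 14.5 or more on average.

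The genes and lists were chosen with earlier results of these data known. Values in every library are given for called genes and the 5 most abundant per kilobase. Genes called with the block and not by genotype alone are named with their adjusted p values, and up to 3 called genes with the smallest p are named per related list. Ppp1r15b was named after its value was seen. Values of 10 genes are uncertain because each overlaps another tested gene: Eif2ak1, Eif2ak2, Eif3j1, Eif4enif1, Eif4a2, Eif5a, Eif1ad, Eif2a, Eif2d and Eif5b. Eif1 and Eif2s3x have GENCODE pseudogenes named after them, and pseudogenes under other names were not searched for. The alternatives tried were further scalings, DESeq2 1.42.0, limma-voom (limma 3.58.1), filters on low counts, the most abundant genes removed, single libraries or days removed, and the day as a block. Fits with genes or libraries removed computed the scaling anew, so their fold changes could move as well.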

Additional observations from a re-analysis of the deposited data

How the results depend on the processing

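The number of genes called higher (5) was 3 with library size alone, 3 without the 10 most abundant genes, 3 among genes averaging 10 CPM or more, and 3 among genes that overlap no other tested gene, an alternative chosen after seeing the data. It ranged from 1 to 5 when a library or a day was left out. The number called lower (12) was 26 with the day as a replicate block and ranged from 4 to 13 when a library or a day was left out. The median log2 fold change (-0.21) was -0.31 with library size alone, -0.26 with upper-quartile factors, -0.26 without the 10 most abundant genes and -0.31 among genes averaging 10 CPM or more, and it ranged from -0.28 to -0.16 when a library or a day was left out. The cause of these shifts was not tested. Leaving out libraries or genes also changes what is tested, and the scaling was computed anew in those runs. The difference in the share of counts and the 7 paralogue ratio differences kept their direction in all alternatives run for them, though with TMM-scaled totals, an alternative chosen after seeing the data, the share overlapped between genotypes. Of the 32 genes called with or without the block, 0 changed direction. Depth is lowest for the 40 genes with a mean below 10 CPM, of which 7 were called.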
